A study of Mus musculus with 8 samples.

Results

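The insulin-like growth factor (IGF) axis was examined in the P1 mouse cortex through 10 genes, of the 48709 listed in the count files. The 10 genes are the ligands *Igf1* and *Igf2*, the receptors *Igf1r* and *Igf2r*, the binding proteins *Igfbp2*, *Igfbp3*, *Igfbp4* and *Igfbp5*, and the related proteins *Igfbp7* and *Igfbpl1*. They were chosen by symbol, after it was known that *Igfbp3* was higher in the mutant in these same libraries. Levels and fold changes of the 10 genes are therefore given as a description, without a p-value, and counts of calls among them are printed beside the share of all genes called and support nothing. IGF1 and IGF2 are secreted growth factors that signal through the receptor tyrosine kinase IGF1R, while IGF2R takes up IGF2 and delivers it to lysosomes. The binding proteins hold most IGF outside cells and set how much reaches the receptor. In the developing brain, IGF1R signalling is known for its part in neuronal survival, growth and polarity.

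RNA from whole cortex at postnatal day 1 was sequenced from 4 control and 4 dcKO_Nex-Cre samples, 1 library each. The controls were described in the study as free of Cre and heterozygous for floxed *Smarcc1* and *Smarcc2* (BAF155 fl/+, BAF170 fl/+). In the dcKO_Nex-Cre cortex both genes, which encode the BAF155 and BAF170 scaffold subunits of the BAF chromatin remodelling complex, were deleted by Cre expressed from the *Neurod6* (Nex) locus, which is active in postmitotic projection neurons. Only the mutant carried Cre at this locus, so effects of the Cre allele itself and of the deletion cannot be told apart here. Interneurons, glia and vessel cells keep both genes, so the libraries hold RNA of deleted and undeleted cells together. The labels give only control or double knockout and the age, and do not say whether each library came from a separate animal, so the p-values below measure the spread between these samples.

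Each file held between 17958641 and 35191912 counts, and the lowest count of any of the 10 genes in any library was 179. Levels are given in CPM, counts scaled to a common library size. The deleted genes were lower, with *Smarcc2* at 462 ± 25.8 CPM in control against 263 ± 26.03 CPM in mutant libraries and *Smarcc1* at 148 ± 11.6 against 102 ± 13.7 CPM (SD, n = 4 each). Both passed an adjusted p of 0.05 in edgeR's quasi-likelihood test with Benjamini-Hochberg adjustment (*Smarcc2* 0.00267, *Smarcc1* 0.0348). *Smarcc1* lost this call in 6 of the 8 fits that left out a library. Markers of cortical projection neurons summed to 1074 to 1194 CPM in the control and 995 to 1216 CPM in the mutant libraries, so the tissue carried the markers of its label in every library. Of these 9 markers 7 had a log2 fold change below 0, and *Emx1*, a transcription factor of the dorsal forebrain, was called lower (log2 fold change -0.60, adjusted p = 0.0332 from edgeR). In the other marker lists edgeR called *C1qb* of the microglia higher (log2 fold change 0.46, adjusted p = 0.0422). Of the 8 microglia markers 5 lay above 0, and *P2ry12* was at -0.57 (adjusted p = 0.0596 from edgeR). The microglia sums overlapped, at 107 to 125 CPM in the control and 112 to 150 CPM in the mutant libraries. Also called was *Prkcd* of the thalamus, which was lower (log2 fold change -0.67, adjusted p = 0.0260), where 0 of 3 tested thalamus markers lay above 0. The part of these markers in the results below was not tested. Of the hindbrain markers, *Hoxa2*, *Hoxb2* and *Hoxb3* were at 0 in all libraries. The 6 striatum markers were present, at 59.7 to 104 CPM in the control and 45.0 to 173 CPM in the mutant libraries (sums). Their sums were highest in control replicate 2 and dcKO_Nex-Cre replicate 2, 0 of 6 were called, and their part in the results was not tested. Lane tag 2 was shared by every control library and by dcKO_Nex-Cre replicates 1 and 2, whereas lane tag 8 held dcKO_Nex-Cre replicates 3 and 4 and no control.

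*Igfbp3* encodes the binding protein that carries most IGF in serum, and in tissue it can restrain or prolong IGF action. It was higher in every mutant library than in every control library. The control replicates 1 to 4 held 50.9, 40.8, 51.03 and 43.3 CPM, and the dcKO_Nex-Cre replicates 1 to 4 held 81.5, 73.6, 78.9 and 77.6 CPM. The lowest mutant library thus lay well above the highest control library, and the groups did not overlap. The mean rose from 46.5 ± 5.24 to 77.9 ± 3.32 CPM (SD, n = 4 each), or 168% of the control, and the log2 fold change was 0.74 (SE, standard error, 0.09). The 4 mutant libraries were close to each other, with a coefficient of variation of 4.26% against 11.3% in the control. The median gene varied by 13.7% in the mutant and 10.2% in the control. Both mutant lanes were alike for *Igfbp3*, at 77.6 CPM with lane tag 2 and 78.3 CPM with lane tag 8. In bulk tissue, more cells that express a gene and more RNA per cell cannot be told apart.

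**Figure D1:**
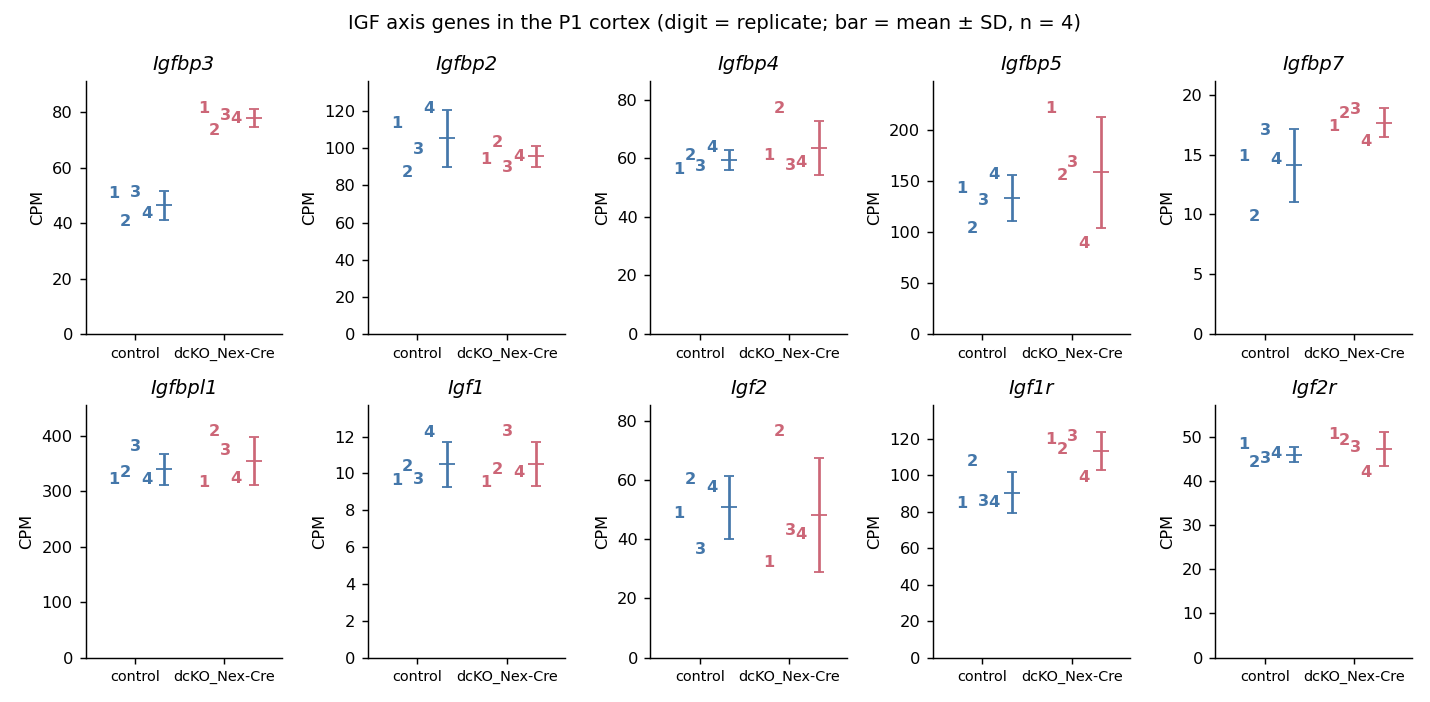
Normalised level in CPM (linear axis from 0) of the 10 genes in each control (blue) and dcKO_Nex-Cre (red) library; the digit is the replicate number, and the bar is the mean ± SD of 4 libraries. *Igfbp3* is the gene whose groups are separate, with mutant libraries at 73.6 CPM or more and control libraries at 51.03 CPM or less.

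*Igfbp3* (ENSMUSG00000020427) lies on the minus strand of chromosome 11, from 7206086 to 7213923 in GRCm38. Its promoter is shown because it is the member on which the result turns, beside that of *Igfbp4* (ENSMUSG00000017493), a binding protein of the same chromosome (99041244 to 99054392, plus strand) whose groups overlapped. Each line gives the 250 bases before the RefSeq start in GRCm38.p6, 5′ to 3′, with the TATA-type motif in capitals. The *Igfbp3* window is chr11:7213924-7214173 on the minus strand and the *Igfbp4* window is chr11:99040994-99041243 on the plus strand.
Igfbp3: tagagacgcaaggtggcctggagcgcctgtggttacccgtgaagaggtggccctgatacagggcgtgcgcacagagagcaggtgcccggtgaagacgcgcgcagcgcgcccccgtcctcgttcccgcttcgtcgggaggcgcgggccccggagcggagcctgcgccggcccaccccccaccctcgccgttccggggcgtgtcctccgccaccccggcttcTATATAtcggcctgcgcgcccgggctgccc
Igfbp4: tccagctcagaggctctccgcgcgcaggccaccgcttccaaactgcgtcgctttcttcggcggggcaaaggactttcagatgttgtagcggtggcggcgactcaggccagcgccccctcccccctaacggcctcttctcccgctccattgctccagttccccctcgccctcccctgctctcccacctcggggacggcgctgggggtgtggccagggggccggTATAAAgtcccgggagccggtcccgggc
The *Igfbp3* window was 73.2% G and C with 32 CpG pairs, and the *Igfbp4* window 69.2% with 22, while the median of all promoters was 52.4%. A TATATA began 30 bases before the start of *Igfbp3*, and a TATAAA 28 bases before the start of *Igfbp4*. On either strand of the window, TATATA was found in 5.25% and TATAAA in 12.4% of 32851 promoters. Of the 9 genes with a RefSeq promoter, 1 held TATATA, 1 held TATAAA, 5 held the GC-box letters GGGCGG (32.7% of all promoters) and 0 held the FoxO-type letters GTAAACA (3.17% of all promoters). *Igf2* and *Igfbp2* have more than 1 window. A gene was counted when any of its windows held the letters, whereas the percentages are over single promoters, so the units differ. These matches describe letters in the windows and not binding. *Igfbpl1* is not among the sequences.

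Of the protein-coding genes within 500000 bases of *Igfbp3*, only *Adcy1* had enough counts to be tested. *Igfbp1*, a binding protein known from liver, lies 3539 bases away on the other strand and had at most 10 counts in any library. *Adcy1*, a neuronal adenylyl cyclase at a distance of 27579 bases, was at 410 ± 34.9 CPM in the control and 348 ± 35.2 CPM in the mutant (SD, n = 4 each), with a log2 fold change of -0.24 (SE 0.09, adjusted p = 0.307 from edgeR). *Adcy1* was named for its position after its values were seen.

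Among the other 9 genes none separated the groups. Of all 10, edgeR called 1 higher and 0 lower, where 0.375% and 0.51% of the 16287 tested genes were called in these directions, and the members were chosen on this contrast, so nothing is read from that count. Without overlap of the groups and higher in the mutant were 1 of 10, against 3.99% of all tested genes. The log2 fold change was above 0 for 8 of the 10 genes and below 0 for 2, with a median of 0.08 over all 10 and 0.06 without *Igfbp3*. Over all tested genes 50.9% were above 0.

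**Figure D2:**
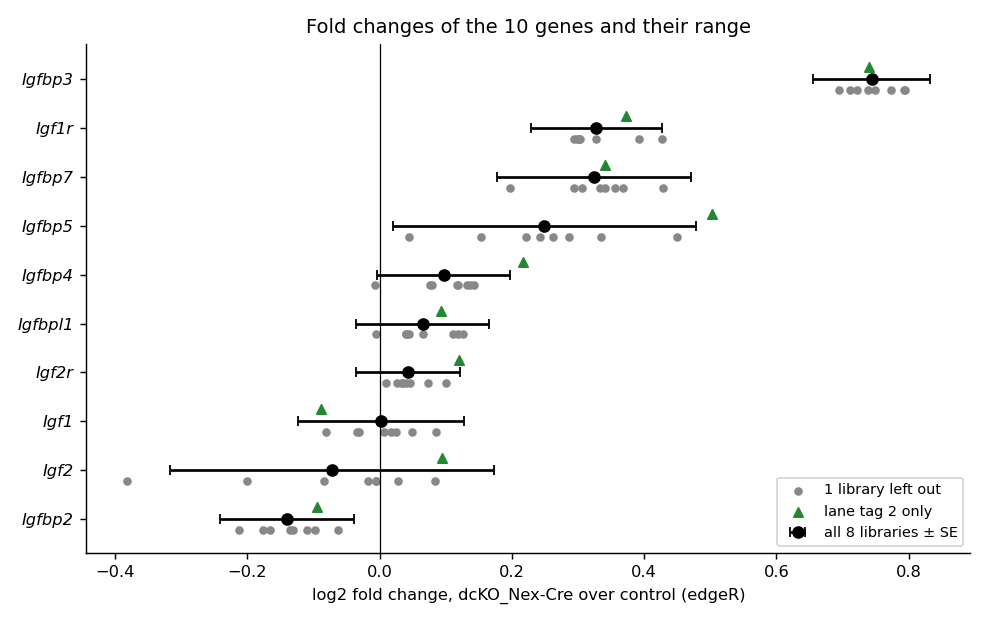
Log2 fold change (dcKO_Nex-Cre over control) of the 10 genes: black points with bars give the edgeR value of all 8 libraries ± SE, grey points the 8 fits on 7 libraries, and green triangles the fit on lane tag 2. *Igfbp3* stays between 0.69 and 0.79 when a library is left out, while *Igf2* moves between -0.38 and 0.08.

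The ligands showed no common shift. *Igf1* (ENSMUSG00000020053, chromosome 10, 87858265 to 87937042), which in the cortex comes from interneurons, microglia and other sources, was at 10.5 ± 1.23 CPM in the control and 10.5 ± 1.21 CPM in the mutant (SD, n = 4 each). Its log2 fold change was 0.00 (SE 0.13), and its values ran from 9.62 to 12.2 CPM in the control and from 9.51 to 12.3 CPM in the mutant. *Igf2* (ENSMUSG00000048583, chromosome 7, 142650766 to 142666816), an imprinted gene that in brain is known from the meninges, choroid plexus and vessels, varied far more. Its control replicates 1 to 4 held 48.8, 60.1, 36.7 and 57.5 CPM, and its mutant replicates 1 to 4 held 32.2, 76.3, 42.8 and 41.8 CPM. The highest and the lowest library were thus both mutant. Its log2 fold change was -0.07 (SE 0.25), and the mutant coefficient of variation was 39.97%, against 13.7% for the median gene.

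*Igf2* followed the meningeal fibroblast markers from library to library. The 10 markers, collagens and other genes of the pial and arachnoid layers, summed to 50.5, 61.6, 42.1 and 63.3 CPM in control replicates 1 to 4 and to 36.3, 119, 51.3 and 44.8 CPM in mutant replicates 1 to 4. In both measures dcKO_Nex-Cre replicate 2 was highest and dcKO_Nex-Cre replicate 1 lowest. Of these markers 0 of 10 were called by edgeR and 9 of 10 had a log2 fold change above 0, and none was at 0 in all libraries. *H19*, the imprinted RNA next to *Igf2*, was at 19.6 ± 2.66 CPM in the control and 19.3 ± 5.46 CPM in the mutant (SD, n = 4 each), and it too was highest in dcKO_Nex-Cre replicate 2, at 26.6 CPM. Without that replicate the log2 fold change of *Igf2* was -0.38. The part of the meningeal RNA in these values was not tested. *Igf2* shares 98 exon bases with *Igf2os* on the opposite strand, which was at 0.325 CPM on average. *Gm49394*, annotated as protein-coding on the same strand, overlaps the span of *Igf2* over 16048 bases and is not listed in the count files.

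**Figure D3:**
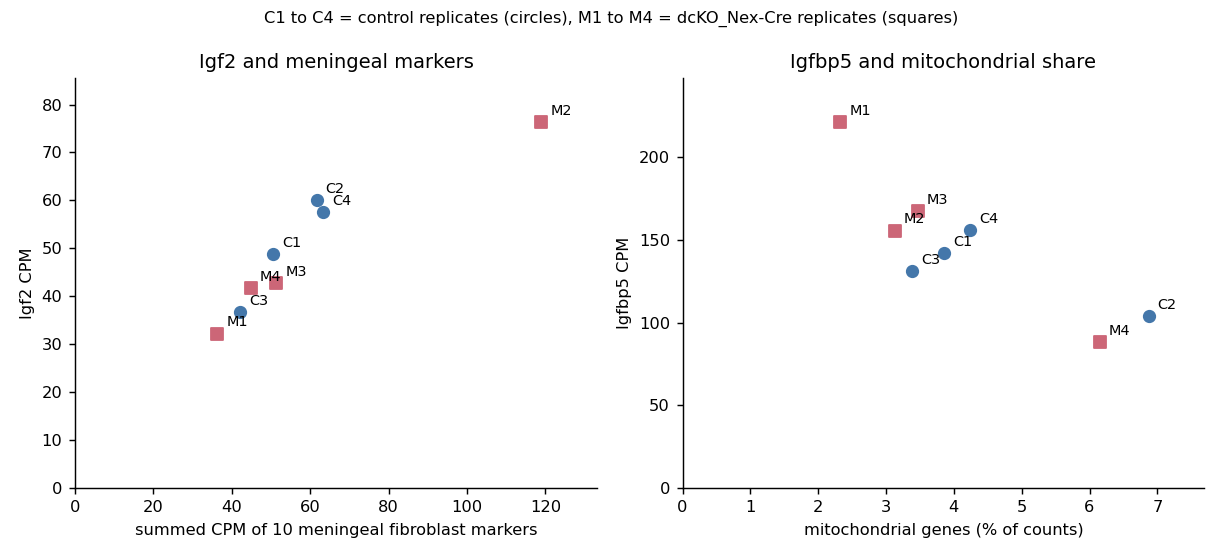
Left, *Igf2* in CPM against the summed CPM of 10 meningeal fibroblast markers; right, *Igfbp5* in CPM against the percentage of counts from mitochondrial genes, with 1 point per library (C1 to C4 control, M1 to M4 dcKO_Nex-Cre). M2 is highest for *Igf2* (76.3 CPM) and for the meningeal sum (119 CPM). The libraries C2 and M4, with the most mitochondrial counts (6.87% and 6.15%), have the lowest *Igfbp5* (104 and 88.3 CPM). C4, at 4.24%, has the highest *Igfbp5* of the controls (156 CPM).

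Of the receptors, *Igf1r* was higher in the mean and *Igf2r* nearly equal between groups. *Igf1r* (ENSMUSG00000005533, chromosome 7, 67952827 to 68233668), the signalling receptor, held 84.4, 107, 85.4 and 84.8 CPM in control replicates 1 to 4 and 119, 114, 121 and 98.6 CPM in mutant replicates 1 to 4. Its groups overlapped because control replicate 2 lay above dcKO_Nex-Cre replicate 4, while the other 3 control libraries lay below all 4 mutant libraries. The means were 90.5 ± 11.2 and 113 ± 10.3 CPM (SD, n = 4 each), a log2 fold change of 0.33 (SE 0.10). These 2 libraries also had the highest mitochondrial share and the fewest counts of all, and the part of this in the result was not tested. Without dcKO_Nex-Cre replicate 4 the log2 fold change of *Igf1r* was 0.39 (SE 0.09), and edgeR then called *Igf1r* besides *Igfbp3*, where 3.98% of all tested genes were called higher. *Igf2r* (ENSMUSG00000023830, chromosome 17, 12682406 to 12769664) was at 46.0 ± 1.73 and 47.3 ± 3.83 CPM (SD, n = 4 each), with a log2 fold change of 0.04 (SE 0.08).

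Among the binding proteins other than *Igfbp3*, *Igfbp2* was slightly lower in the mean and *Igfbp4* slightly higher, and both overlapped between groups. *Igfbp2* (ENSMUSG00000039323, chromosome 1, 72824503 to 72852474), a binding protein of the fetal brain and choroid plexus, held 113, 86.9, 99.6 and 122 CPM in control replicates 1 to 4 and 93.9, 103, 89.6 and 95.8 CPM in mutant replicates 1 to 4. Its log2 fold change was -0.14 (SE 0.10). The libraries highest in *Igfbp2* were control replicates 4 and 1 and dcKO_Nex-Cre replicate 2, and the same 3 libraries led in the summed choroid plexus markers, at 1378, 766 and 572 CPM. The other 5 libraries had 9.49 to 99.9 CPM of these markers. Of the 8 tested choroid plexus markers 0 were called and 0 had a log2 fold change above 0, with a median of -1.76. None was at 0 in all libraries. The part of choroid plexus RNA in *Igfbp2* was not tested. *Igfbp4* was at 59.4 ± 3.50 and 63.5 ± 9.18 CPM (SD, n = 4 each), with a log2 fold change of 0.10 (SE 0.10), and its highest library was dcKO_Nex-Cre replicate 2 at 77.1 CPM.

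*Igfbp5* was the most variable binding protein. It lies on chromosome 1 (ENSMUSG00000026185, 72857932 to 72874884, minus strand), with its end 5457 bases from the end of *Igfbp2* on the plus strand, and it is known for binding extracellular matrix and for modulating IGF action. It held 142, 104, 131 and 156 CPM in control replicates 1 to 4 and 221, 156, 168 and 88.3 CPM in mutant replicates 1 to 4. The mutant libraries thus spanned both the highest and the lowest value. Its log2 fold change was 0.25 (SE 0.23), and it was 0.50 within lane tag 2 and 0.04 without dcKO_Nex-Cre replicate 1. *Igfbp5* was lowest in dcKO_Nex-Cre replicate 4 and control replicate 2, where mitochondrial genes took 6.15% and 6.87% of the counts, and highest in dcKO_Nex-Cre replicate 1, where they took 2.33%. Control replicate 4 broke this order, with 4.24% and the highest control value. The lowest libraries also had the fewest counts (17958641 and 18737230), and dcKO_Nex-Cre replicate 1 the most (35191912). They led in the summed Cajal-Retzius cell markers too, at 767 and 964 CPM. Of these 6 markers 0 were called and 1 lay above 0. The part of these traits in the result was not tested.

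*Igfbp7* and *Igfbpl1* share the IGFBP N-terminal domain but are not among the classical high-affinity binding proteins. *Igfbp7* (ENSMUSG00000036256, chromosome 5, 77349240 to 77408041), known from vessels, held 14.9, 9.85, 17.02 and 14.6 CPM in control replicates 1 to 4 and 17.4, 18.4, 18.8 and 16.1 CPM in mutant replicates 1 to 4. Its groups overlapped because of control replicate 3. The log2 fold change was 0.32 (SE 0.15), and 0.20 without control replicate 2. That replicate was also lowest in the summed markers of endothelial cells, at 112 CPM, where the other control libraries held 158 to 164 CPM and the mutant libraries 151 to 188 CPM. Of these 10 endothelial markers 0 were called, 9 had a log2 fold change above 0 and none was at 0. The 8 markers of mural cells, the other vessel list, summed to 176 to 241 CPM in the control and 174 to 200 CPM in the mutant libraries. Of these mural markers 0 were called and 3 had a log2 fold change above 0. The part of either list in the *Igfbp7* values was not tested. *Igfbp7* shares 85 exon bases with *Polr2b* on the opposite strand, which was at 144 CPM on average, so reads there cannot be assigned if strand was ignored. *Polr2b* had a log2 fold change of 0.24 (SE 0.12, adjusted p = 0.381 from edgeR). *Igfbpl1* (ENSMUSG00000035551, chromosome 4, 45809468 to 45826923), a gene of newborn neurons, was at 340 ± 28.1 and 355 ± 43.2 CPM (SD, n = 4 each), with a log2 fold change of 0.06 (SE 0.10).

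To compare levels between genes, CPM was divided by the length of the annotated exons in kilobases. On this scale the control order ran from *Igfbpl1* (104.5 CPM per kb) through *Igfbp2* (57.03), *Igfbp5* (22.2), *Igfbp3* (14.9), *Igfbp4* (13.4), *Igfbp7* (11.7), *Igf2* (8.87), *Igf1r* (5.39) and *Igf2r* (4.94) to *Igf1* (1.06 CPM per kb). The binding proteins thus stood above the receptors and *Igf1* in level per length. In the control libraries the ranges of *Igfbp3* and *Igfbp4*, of *Igfbp4* and *Igfbp7*, of *Igfbp7* and *Igf2*, and of *Igf1r* and *Igf2r* overlapped, and those of the other neighbours did not. In the mutant the level per length of *Igfbp3* was 24.9 CPM per kb, next to *Igfbp5* at 26.3 CPM per kb, with overlapping ranges. Its range of 23.5 to 26.05 CPM per kb then lay above that of the next gene, *Igfbp7*, at 13.3 to 15.6 CPM per kb. With the length of the longest transcript in place of all exons, *Igfbp3* stood above *Igfbp5* in the mutant (32.2 against 26.3 CPM per kb) and below it in the control (19.2 against 22.2), with overlapping ranges in both groups.

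The share of *Igfbp3* among the 4 binding proteins was larger in the mutant. Of their summed level per length, *Igfbp3* held 13.9 ± 1.69% in the control and 21.3 ± 1.97% in the mutant (SD, n = 4 each), with control libraries at 11.5% to 15.5% and mutant libraries at 19.1% to 23.7%. *Igfbp2* held 52.9 ± 1.69% and 44.3 ± 4.19% (SD, n = 4 each), and its ranges did not overlap, at 51.3% to 54.8% and 39.9% to 49.6%. *Igfbp5* held 20.5 ± 1.14% and 22.1 ± 6.25%, and *Igfbp4* 12.6 ± 1.72% and 12.3 ± 1.53% (SD, n = 4 each). Shares sum to a whole, so they are not independent of each other. The mean share of *Igfbp5* was larger in the mutant too. *Igfbp2* was also lower in mean CPM, at 105 ± 15.3 against 95.6 ± 5.67 (SD, n = 4 each), with overlapping groups. The share of *Igfbp3* holds the contrast by which the gene was chosen. The summed level itself was 108 ± 12.6 and 117 ± 10.03 CPM per kb (SD, n = 4 each), with overlapping groups.

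The genes most like *Igfbp3* over the 8 libraries were found by the root mean square difference of log2 CPM, each gene centred on its own mean. They were *Dsc2* (0.0974), a desmosomal cadherin, *Grem1* (0.112), a secreted BMP antagonist, *Npy1r* (0.134), a neuropeptide Y receptor, *Ddit4* (0.145), a stress-induced inhibitor of mTORC1, and *Rtl5* (0.147), a retrotransposon-derived gene. *Npy1r* rose from 21.7 ± 1.26 to 37.3 ± 4.18 CPM and *Ddit4* from 75.0 ± 8.05 to 106 ± 5.41 CPM (SD, n = 4 each). The measure holds the contrast by which *Igfbp3* was chosen, so these levels are a description. *Dsc2* had 41.8 counts per library on average and is the least precise of the 5. Of the other members, *Igfbp7* (0.254) and *Igf1r* (0.295) were nearest to *Igfbp3* and *Igf2* (0.634) was farthest.

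The wider insulin and IGF pathway was described with a list of 82 further genes in 7 groups, of which 72 passed the filter on low counts. The list covers other binding and carrier proteins, proteins with an IGFBP domain, proteases that cut binding proteins, receptors, adaptors, the PI3K, AKT, mTOR and FoxO genes, and genes tied to *Igf2* and *Igf2r*. At an adjusted p under 0.05, edgeR called 0 of the 72 in either direction, where 0.884% of all tested genes were called, and DESeq2's Wald test called 3 (*Ccn1*, *Grb10* and *Foxo4*), all higher, where it called 1.32% of all higher. At an unadjusted p under 0.05, 8 of the 72 were higher and 0 lower, or 11.1%, where 6.59% of all tested genes were higher and 7.05% lower. The log2 fold change was above 0 for 46 (63.9%) and below 0 for 26, with a median of 0.05. Among all tested genes 50.9% were above 0. The list was chosen with earlier results of these data known, so nothing is read from these counts. The groups did not overlap for *Foxo4*, which was higher, and for *Socs3* and *Igf2bp3*, which were lower, where 3.99% and 4.01% of all tested genes were so.

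**Figure D4:**
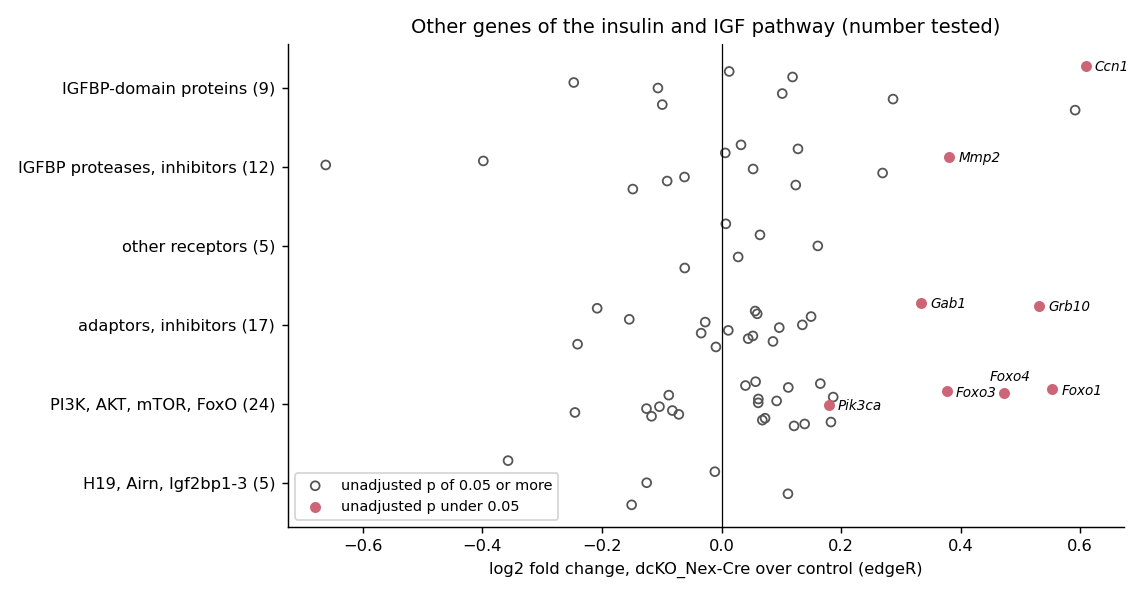
Log2 fold change (dcKO_Nex-Cre over control, edgeR) of the 72 tested genes of the wider list, by group with the number tested; filled points have an unadjusted p under 0.05 and are named, and the vertical offset within a group has no meaning. All 8 named genes lie above 0, from *Pik3ca* at 0.18 to *Ccn1* at 0.61.

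Of the FoxO genes, *Foxo1*, *Foxo3* and *Foxo4* encode transcription factors that insulin and IGF signalling keeps out of the nucleus. These genes were among the 8 of the list with an unadjusted p under 0.05 in edgeR. *Foxo4* held 19.4, 21.6, 22.7 and 19.4 CPM in control replicates 1 to 4 and 30.1, 29.7, 32.2 and 23.1 CPM in mutant replicates 1 to 4. Its groups did not overlap, and its log2 fold change was 0.47 (SE 0.11, adjusted p = 0.0834 from edgeR). *Foxo3* had a log2 fold change of 0.38 (SE 0.12, adjusted p = 0.202) and *Foxo1*, named after its values were seen, of 0.55 (SE 0.21, adjusted p = 0.292), both from edgeR and with overlapping groups. *Foxo6*, also named after its values were seen, lay below 0, with a log2 fold change of -0.09 (adjusted p = 0.810 from edgeR). For *Foxo1*, *Foxo3* and *Foxo4* the lowest mutant library was dcKO_Nex-Cre replicate 4. Without that replicate edgeR called 7 genes of the list, all higher: *Ccn1*, *Mmp2*, *Gab1*, *Grb10*, *Foxo1*, *Foxo3* and *Foxo4*, where 3.98% of all tested genes were called higher. Within lane tag 2 edgeR called *Foxo1* and *Foxo4*, where 0.834% of all tested genes were called higher. *Foxo1* was highest in dcKO_Nex-Cre replicate 2, at 59.5 CPM, while the other mutant libraries held 23.6 to 39.8 CPM. Without replicate 2 its log2 fold change was 0.31 (SE 0.17, adjusted p = 0.551 from edgeR).

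In the adaptor group of 17 genes, 11 lay above 0 and 6 below. *Grb10*, an imprinted adaptor that inhibits the insulin and IGF1 receptors, was at 44.2 ± 8.17 CPM in the control and 63.8 ± 9.95 CPM in the mutant (SD, n = 4 each; log2 fold change 0.53, SE 0.15, adjusted p = 0.148 from edgeR), and *Gab1*, a docking protein, had a log2 fold change of 0.33 (adjusted p = 0.282 from edgeR). *Irs1* and *Irs2*, the main receptor substrates, had log2 fold changes of 0.06 and 0.15 and were named after their values were seen. *Socs3*, a feedback inhibitor named for the same reason, was lower without overlap, with a log2 fold change of -0.24 (adjusted p = 0.451 from edgeR).

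Of the 9 tested proteins with an IGFBP domain, 6 lay above 0. *Ccn1*, a matricellular protein, held 7.97, 6.84, 8.89 and 6.12 CPM in control replicates 1 to 4 and 12.1, 12.1, 12.6 and 8.70 CPM in mutant replicates 1 to 4, with a log2 fold change of 0.61 (SE 0.16, adjusted p = 0.120 from edgeR). Its groups overlapped by dcKO_Nex-Cre replicate 4 alone. *Kazald1* had 17.2 counts per library on average and a log2 fold change of 0.59 (SE 0.28, adjusted p = 0.387 from edgeR). Among the 12 tested proteases and inhibitors, *Mmp2*, a matrix metalloproteinase that can cleave binding proteins, had a log2 fold change of 0.38 (adjusted p = 0.223 from edgeR), and *Pappa2*, a protease that releases IGF from IGFBP3 and IGFBP5, a value of -0.66 (SE 0.37, adjusted p = 0.450 from edgeR).

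The other receptors differed little, with *Insr*, the insulin receptor, at a log2 fold change of 0.06 (SE 0.08, adjusted p = 0.750 from edgeR) and *Lrp1*, a scavenger receptor that can bind IGFBP3, at 0.16 (SE 0.11, adjusted p = 0.531 from edgeR). *Igf2bp3*, an RNA-binding protein that binds *Igf2* transcripts, was lower without overlap, from 15.3 ± 0.468 to 13.8 ± 0.580 CPM (SD, n = 4 each; log2 fold change -0.15, adjusted p = 0.464 from edgeR). *Airn*, the RNA antisense to *Igf2r*, was at 1.37 ± 0.497 and 1.08 ± 0.336 CPM (SD, n = 4 each; adjusted p = 0.623 from edgeR) and shares no exon bases with *Igf2r*. *Igfbp1*, *Igfbp6* and *Igfals*, the remaining binding and carrier genes, had at most 10 counts in any library and were not tested.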

How the data were processed

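The files that the authors deposited hold unnormalised read counts by Ensembl identifier, 1 file for each of the 8 libraries. The submitters' processing notes name the mm10 build. The aligner, the counting program, the annotation and the use of strand are not given in the sources used here. Genes were named and placed with GENCODE M21 (48349 of 48709 identifiers matched). Counts were filtered by filterByExpr, which kept 16287 genes, normalised by TMM, and compared with edgeR 4.0.16 in R 4.3.3 (robust quasi-likelihood test, two-sided, no covariates, Benjamini-Hochberg adjustment over all tested genes, threshold 0.05). CPM uses TMM-normalised library sizes, and log2 CPM a prior count of 2. The alternatives were DESeq2 size factors, the Wald test of DESeq2 1.42.0, limma-voom (limma 3.58.1), no filter, at least 10 counts in every library, the replicate number as a block, lane tag 2 only, and each library left out in turn. The lane tags come from the names of the deposited files. The fits were tested on simulated data with 200 changed genes. The Nex-Cre driver and the control genotype were taken from the study's methods. The members, the wider list and the marker lists were chosen with earlier results of these data known. The text names all members, the deleted genes and marker genes. It also names the 2 genes of smallest p in each tested group of the wider list and the 5 genes most like *Igfbp3*. Of the genes that overlap a member, it names those that share exon bases, were tested or code for protein. Other genes are said to be named after their values were seen, and this holds for *H19* and *Pik3ca* too. Promoter windows come from RefSeq, and their motifs were chosen after the sequences were seen. Replicates with the same number in the 2 groups did not deviate together (correlations over genes from -0.14 to 0.13), so the numbers were not taken to pair the samples. The largest correlation between the groups was 0.37, for control replicate 2 with dcKO_Nex-Cre replicate 4. With dcKO_Nex-Cre replicates 1 and 3, control replicate 2 was at -0.29 and -0.24. The cause of these shared deviations was not tested.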

Additional observations from a re-analysis of the deposited data

Results flagged for a closer look

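In groups of 4 libraries, 6 of 72 tested had a library far from the other 3, where a rate of about 1 in 20 would give 3.6. *Igf1r* in the control reached 107 CPM in replicate 2, while the remaining replicates held 84.4 to 85.4 CPM. The endothelial marker sum was lowest in the same library, at 112 CPM against 158 to 164 CPM. In the dcKO_Nex-Cre cortex replicate 4 was below the other replicates for *Ccn1* (8.70 against 12.1 to 12.6 CPM), *Insr* (79.2 against 93.4 to 95.7 CPM) and *Foxo3* (53.0 against 70.0 to 72.9 CPM). The summed choroid plexus markers reached 572 CPM in dcKO_Nex-Cre replicate 2, and its gap to the next mutant library was 0.981 of the group's range, the lowest mutant library being at 9.49 CPM. *Igfbp3* showed no such library in either group.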

How the results depend on the processing

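*Igfbp3* had log2 fold changes from 0.69 to 0.79 in the 15 alternatives, which describe the same libraries it was chosen on. *Igfbp2* stayed below 0 (-0.21 to -0.06), and *Igf1r*, *Igf2r*, *Igfbp5* and *Igfbp7* stayed above 0, in all 15, while *Igf1*, *Igf2*, *Igfbp4* and *Igfbpl1* changed sign in some of them. The count of members called was 1 to 2 when a library was left out, the 2 without dcKO_Nex-Cre replicate 4. The wider list had 0 higher calls in edgeR, 3 with DESeq2's Wald test, 2 without a filter, 2 within lane tag 2 (*Foxo1* and *Foxo4*), and 0 to 7 when a library was left out, the 7 without dcKO_Nex-Cre replicate 4. Over all genes, 61 higher and 83 lower calls became 215 and 279 with DESeq2's Wald test, 109 and 150 without a filter, and 140 and 108 within lane tag 2, where more genes were thus higher than lower. Leaving out a library gave 9 to 659 higher and 9 to 619 lower calls, the most without dcKO_Nex-Cre replicate 4. With the replicate number as a block, 21 genes were higher and 33 lower, and the block changed no call of a member or of the wider list. *Smarcc1* lost its call under the block and within lane tag 2. The cause of these shifts was not tested. With 4 libraries a group, members of high spread such as *Igf2* and *Igfbp5* have standard errors of 0.25 and 0.23 on the log2 scale. Differences of that size were not detectable, and larger ones could be missed too. *Foxo4*, with a smaller standard error of 0.11, was not called at a log2 fold change of 0.47 (adjusted p = 0.0834 from edgeR).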
